A study of Homo sapiens with 6 samples.

Results

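The zinc finger genes of human chromosome 19 that carry a numbered ZNF symbol were examined as a group. A gene was a member if its symbol was ZNF followed by digits and at most 1 letter, and if all of its exons lay on chromosome 19 in hg19. This rule found 246 members among the 23228 genes of the deposited tables. Enough reads for a test were present for 226 of them, among 14537 genes tested, and 20 members had too few.

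Most genes of this family encode C2H2 zinc finger proteins, in which a row of short zinc-binding loops reads DNA. Many also carry a KRAB domain, which recruits the corepressor TRIM28 (also called KAP1) and with it the histone methyltransferase SETDB1, and these proteins are best known for silencing transposable elements. The genes arose largely by tandem duplication and therefore lie in clusters of related neighbors, and promoters of several of them are known to be methylated and silent in tumors.

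RNA-seq was performed in Hep3B, a cell line from a human hepatocellular carcinoma, grown in RPMI medium. The 3 control libraries came from cells given lentiviral particles with a nontargeted shRNA, and the 3 libraries labelled PELP1-KD from cells given particles with shRNA against PELP1, a scaffold protein of nuclear receptor signaling and ribosome biogenesis. Stable clones were selected with puromycin and pooled, so each group was a pool of clones. The titles of the knockdown samples name PELP1 shRNA 1, while the treatment text names 2 PELP1 shRNAs, and nothing says that replicates were separate cultures, so p values measure the spread between these libraries only.

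Reads on genes numbered 26758363 to 34456542 per library. For PELP1 itself, control replicates 1 to 3 had 5338, 5127 and 5348 reads, and those labelled PELP1-KD had 4318, 4135 and 4846. Scaled to library size, this was a log2 fold change of −0.08 ± 0.04 (SE, n = 3 per group) with an adjusted p of 0.101 in edgeR's quasi-likelihood test, so the targeted RNA did not pass the test and the groups are called by their labels. A block on the replicate number left the change at −0.083 but brought the adjusted p to 0.0106, and leaving out replicate 3 of the labelled group gave −0.10 (adjusted p = 0.0180). The scaled groups of PELP1 did not overlap, as was so for 58.8% of all tested genes. The paper reports less PELP1 protein by Western blot in its Hep3B cells with PELP1 shRNA, which these RNA libraries do not measure. All 8 hepatocyte and hepatoma markers examined, ALB and AFP among them, were detected. Of the 8, 6 were lower and 2 higher in the libraries labelled PELP1-KD, where 26.8% of all tested genes were lower and 26.8% higher. Of 7 markers of other cell types, PTPRC, CD3E, VWF and ACTA2 were at or near 0. PECAM1 (66.9 normalized reads in control and 62.7 in the labelled libraries) and COL3A1 (34.2 and 32.7) were detected at low levels and did not pass. The summed level of the 7 was 1491 normalized reads in control and 2032 in the labelled libraries, nearly all of it CD68. CD68 was higher in the labelled libraries, by 0.48 ± 0.05 on the log2 scale (edgeR adjusted p = 1.2e-07). What part CD68 had in the results below was not tested.

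The promoters of 5 members are shown because their CpG content can be set beside their change in expression. CpG dinucleotides are in capitals. ZNF667, ZNF549 and ZNF135 fell and have CpG-dense promoters, ZNF793 fell with a less dense one, and ZNF550 is the neighbor of ZNF549 that did not fall. Each window runs from 250 bases before to 50 bases after the RefSeq start, is taken from the RefSeq promoter table of GRCh38.p14, matched 1 place in GRCh37 exactly, and carries hg19 coordinates. The start of ZNF550 in RefSeq lies upstream of the first exon given in the deposited tables.
ZNF667, chr19:56988665-56988964, minus strand: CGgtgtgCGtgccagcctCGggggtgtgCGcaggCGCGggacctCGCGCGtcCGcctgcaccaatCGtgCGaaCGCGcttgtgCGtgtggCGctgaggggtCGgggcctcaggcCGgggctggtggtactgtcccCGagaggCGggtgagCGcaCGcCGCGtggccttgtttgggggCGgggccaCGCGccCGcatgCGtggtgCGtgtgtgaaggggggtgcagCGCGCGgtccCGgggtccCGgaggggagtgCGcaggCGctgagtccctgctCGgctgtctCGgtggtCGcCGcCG
ZNF549, chr19:58038474-58038773, plus strand: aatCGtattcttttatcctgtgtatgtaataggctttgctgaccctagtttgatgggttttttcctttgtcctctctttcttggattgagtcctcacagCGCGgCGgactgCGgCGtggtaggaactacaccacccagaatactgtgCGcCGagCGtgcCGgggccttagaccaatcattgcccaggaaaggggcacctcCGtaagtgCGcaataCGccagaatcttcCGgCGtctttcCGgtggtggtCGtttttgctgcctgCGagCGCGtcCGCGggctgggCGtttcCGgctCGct
ZNF550, chr19:58071182-58071481, minus strand: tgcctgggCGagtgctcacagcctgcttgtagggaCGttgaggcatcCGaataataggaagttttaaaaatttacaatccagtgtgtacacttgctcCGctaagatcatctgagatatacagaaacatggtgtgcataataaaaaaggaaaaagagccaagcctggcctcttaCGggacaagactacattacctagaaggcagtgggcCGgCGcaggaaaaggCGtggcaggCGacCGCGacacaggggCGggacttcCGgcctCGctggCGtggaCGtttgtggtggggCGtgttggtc
ZNF135, chr19:58570357-58570656, plus strand: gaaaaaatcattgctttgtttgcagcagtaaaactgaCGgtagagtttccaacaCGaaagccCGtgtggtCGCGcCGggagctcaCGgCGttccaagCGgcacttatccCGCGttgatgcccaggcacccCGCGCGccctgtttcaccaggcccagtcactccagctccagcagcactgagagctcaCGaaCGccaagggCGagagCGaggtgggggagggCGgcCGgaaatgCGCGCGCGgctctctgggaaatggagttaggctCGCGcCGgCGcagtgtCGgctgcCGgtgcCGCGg
ZNF793, chr19:37997591-37997890, plus strand: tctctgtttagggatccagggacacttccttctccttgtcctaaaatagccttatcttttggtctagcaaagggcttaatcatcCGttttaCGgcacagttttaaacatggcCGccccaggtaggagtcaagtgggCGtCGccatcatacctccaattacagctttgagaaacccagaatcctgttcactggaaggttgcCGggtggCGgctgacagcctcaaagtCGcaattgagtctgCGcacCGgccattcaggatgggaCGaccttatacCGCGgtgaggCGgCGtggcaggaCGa
The ZNF667 window holds 42 CpG, that of ZNF135 holds 32, that of ZNF549 holds 25, that of ZNF550 holds 17 and that of ZNF793 holds 16.

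The comparison of the libraries labelled PELP1-KD with control asked how the members' RNA differed between the groups. Members moved in both directions. At an adjusted p under 0.05 in edgeR, 46 members (20.4% of 226) were lower, where 26.8% of all tested genes were lower, and 45 (19.9%) were higher, where 26.8% of all tested genes were higher. The other 135 did not pass. The median log2 fold change of the members was 0.01, and that of all tested genes was 0.00. The normalized reads of the groups did not overlap for 113 members (50%), against a background of 58.8%.

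Among larger changes the directions were unequal. With a change of at least 2-fold as well, 19 members (8.41%) fell, where 4.79% of all tested genes fell, and 1 member (0.442%) rose, where 2.85% of all tested genes rose. In either direction these were 20 members, where 7.65% of all tested genes passed. The count of 19 cannot be read as an excess. By group means, 13 of these members reached the cutoff of the filter on low reads only in control. Such a gene had to differ between the groups. Among all genes, 290 passed in this way, and 214 of them (73.8%) were called at least 2-fold lower. Among the 213 members with both group means over the cutoff, 6 (2.82%) fell and 1 (0.469%) rose at least 2-fold, beside 3.43% and 2.40% of the 14078 genes of that kind. The filter itself required the cutoff in 3 libraries. Of the 6, ZNF135, ZNF667 and ZNF418 were under it in replicate 2 of the labelled group, so they too passed only with control libraries. The 6 are therefore not free of the filter's effect either. By group means, no member passed the filter only through the libraries labelled PELP1-KD, while 162 of all genes did.

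**Figure D1:**
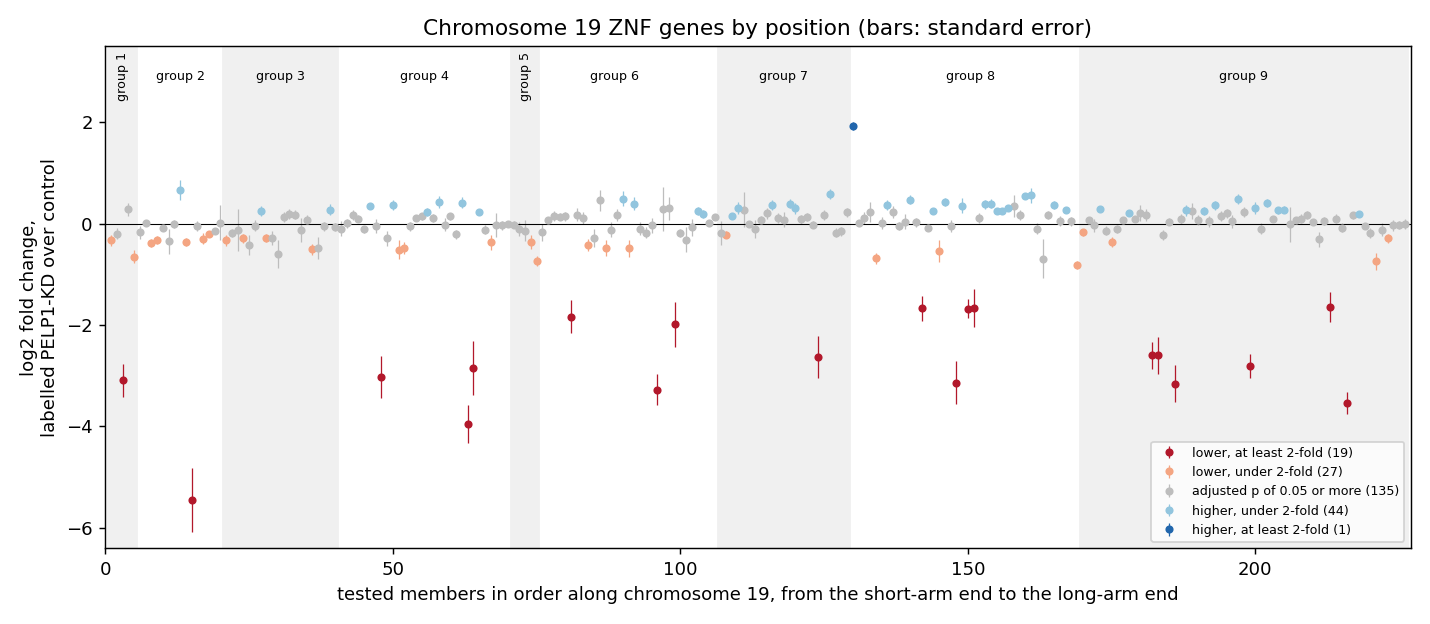
Log2 fold change (libraries labelled PELP1-KD over control) of the 226 tested members in chromosomal order, with bars for the standard error and alternate shading for the 9 numbered position groups. The 19 members called at least 2-fold lower lie at −1.64 or lower, in 7 of the 9 groups, with none between them and ZNF331 at −0.82.

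The largest reductions were in members with few reads in control and almost none in the other group. ZNF135 had 129, 145 and 162 reads in control libraries against 13, 7 and 13 in those labelled PELP1-KD. Its normalized reads were 137 ± 18.2 (SD, n = 3) and 11.5 ± 2.88, or 8.37% of control, with a log2 fold change of −3.55 ± 0.22 (SE) and an adjusted p of 4.02e-11. ZNF135 has the highest control level among the 19, per length too, and its protein has a KRAB match and 16 fingers. ZNF549 had 112, 80 and 87 reads in control and 13, 12 and 10 in the other group. It fell by 2.81 ± 0.24 on the log2 scale, to 14.2% of control, with an adjusted p of 5.58e-09. Every labelled library of both genes was far below every control library. In bulk RNA from pooled clones, fewer cells with the RNA and less RNA per cell cannot be told apart.

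ZNF667, also known as MIPU1 and a KRAB repressor, had 79, 101 and 66 reads in control libraries against 17, 7 and 12 in those labelled PELP1-KD, without overlap. It fell by 2.60 ± 0.27 on the log2 scale (edgeR adjusted p = 1.09e-07). The transcript listed as LOC100128252, which RefSeq calls ZNF667-AS1, starts 473 bases away on the opposite strand and is the divergent partner of ZNF667. It had 228, 252 and 220 reads in control and 75, 73 and 89 in the other group, a log2 fold change of −1.39 ± 0.12 with an adjusted p of 6.33e-09. Both transcripts of the pair were lower, and ZNF471, the next tested member, was lower as well. ZNF471, a KRAB gene known to be methylated in gastric tumors, had 42, 43 and 26 reads in control and 7, 6 and 3 in the other group, a change of −2.60 ± 0.37.

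ZNF560 fell to 2, 0 and 0 reads from 28, 54 and 33. With 115 reads against 2 in all, and depths taken into account, control was 51.2 times as high, with a 95% counting interval from 13.9 to 428. ZNF560 was picked for having at most 3 reads in one group and at least 30 in the other, and it passed the filter only through control. The ratio and its interval rest on the same reads that picked the gene, so they are not an unbiased estimate. The fitted log2 fold change was −5.45 ± 0.63 (adjusted p = 4.32e-07), and over the alternative settings it lay between −8.19, without replicate 1 of the labelled group, and −4.90. ZNF676 had 61, 61 and 40 reads in control libraries against 2, 3 and 4 in those labelled PELP1-KD, a change of −3.95 ± 0.37. Its neighbor ZNF492 had 19, 20 and 20 reads against 3, 4 and 0, a change of −2.85 ± 0.53 (−3.51 without replicate 2 and −2.24 without replicate 3 of the labelled group). Both lie in the large cluster beside the centromere.

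ZNF793 had 89, 70 and 74 reads in control and 4, 12 and 5 in the other group, a log2 fold change of −3.28 ± 0.31 (−3.97 without replicate 2 of the labelled group). ZNF835, which has fingers but no KRAB match, had 56, 56 and 81 reads against 6, 1 and 12, a change of −3.16 ± 0.37 (−3.95 without replicate 3 of the labelled group). ZNF556 had 41, 50 and 46 reads against 4, 4 and 6, a change of −3.09 ± 0.33. None of the 3 had overlapping groups, and each was at 10.5% to 11.4% of its control mean. ZNF233 had 26, 30 and 30 reads in control libraries against 3, 7 and 2 in those labelled PELP1-KD, a change of −2.64 ± 0.41 (−3.36 without replicate 2 of the labelled group). ZNF382, a KRAB repressor described as a methylated tumor suppressor, had 40, 28 and 29 reads against 9, 6 and 9, a change of −1.83 ± 0.32. ZNF382 shares a divergent start with ZNF529, whose change of 0.14 ± 0.09 did not pass (adjusted p = 0.221).

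ZNF836 and ZNF701 were lower but kept more of their RNA. ZNF836, with 24 fingers, had 65, 48 and 53 reads in control and 15, 16 and 15 in the other group, a log2 fold change of −1.67 ± 0.24. ZNF701 had 94, 92 and 85 reads against 26, 21 and 28, a change of −1.68 ± 0.19. They stood at 31.4% and 31.0% of control. The values of ZNF701 are rounded, because part of its reads also matched other places or overlapped other genes and were counted as fractions.

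The 6 remaining members called at least 2-fold lower are named here because of their values, outside the rule for named genes, as was ZNF471. ZNF578 had 32, 30 and 40 reads in control libraries against 3, 6 and 1 in those labelled PELP1-KD, a change of −3.14 ± 0.43 (−3.91 without replicate 2 of the labelled group). ZNF90, with rounded fractional reads, had 44, 37 and 22 against 3, 3 and 5, a change of −3.02 ± 0.41. ZNF781 varied widely in control, with 15, 46 and 29 reads against 9, 4 and 7, a change of −1.99 ± 0.44. The lowest control library of ZNF781 was still above the highest of the other group. The pseudogene ZNF137P had 28, 20 and 31 reads against 5, 11 and 6, a change of −1.66 ± 0.37. ZNF418 had 56, 39 and 56 reads against 20, 6 and 17, a change of −1.64 ± 0.30, the smallest of the 19. ZNF492 was given above with its neighbor ZNF676.

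The 19 members had low levels in control, with means between 18.6 and 137 normalized reads, and stood at 1.88% to 32.2% of control in the libraries labelled PELP1-KD. All of their groups were free of overlap, 17 of them had only whole reads in all 6 libraries, and their adjusted p values in edgeR were at most 0.000918. The 19 were selected by adjusted p and fold change, so the lack of overlap and the small p values add no support. As given above, 13 of the 19 passed the filter only through control by group means. No tested member had a log2 fold change between −1.64 (ZNF418) and −0.82 (ZNF331).

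**Figure D2:**
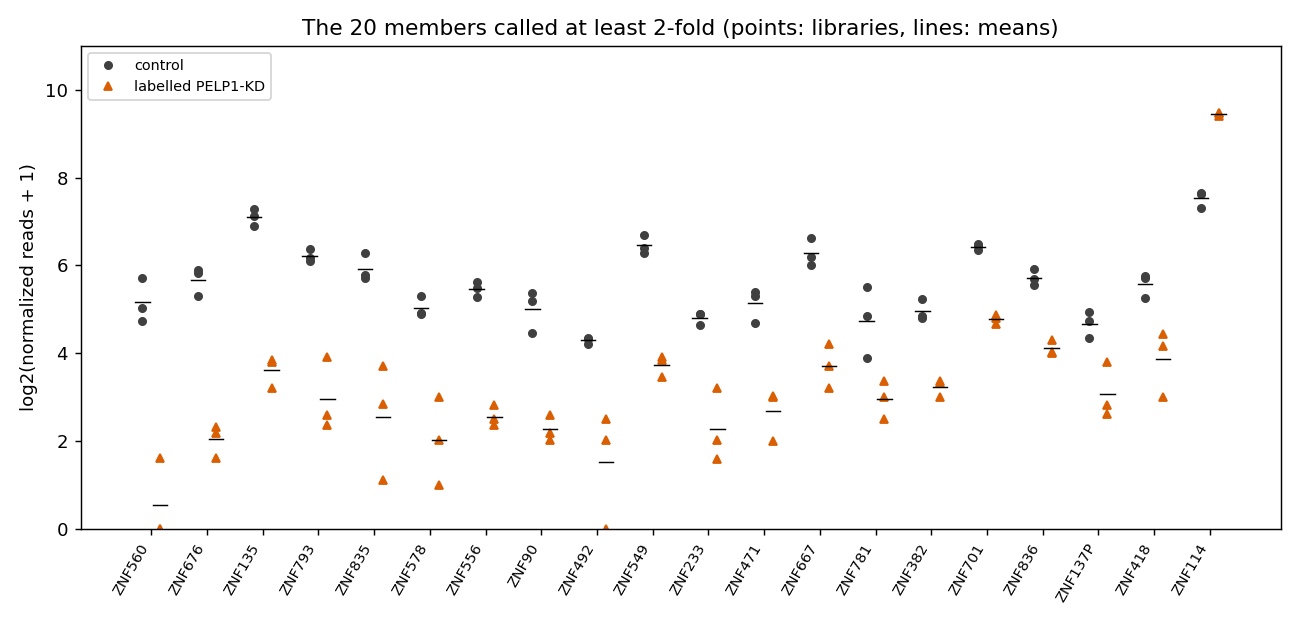
Normalized reads on a log2(reads + 1) scale in each of the 3 control libraries (circles) and 3 libraries labelled PELP1-KD (triangles) of the 20 members called at least 2-fold, ordered by fold change, with lines at the group means on this scale. The groups of all 20 members are apart, which their selection by adjusted p and fold change favors, and ZNF114 at the right is the 1 member that rose.

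ZNF114 was the only member that rose at least 2-fold. It had 171, 208 and 206 reads in control libraries against 689, 577 and 713 in those labelled PELP1-KD. Its normalized reads rose from 184 ± 23.8 (SD, n = 3) to 697 ± 20.8, or 378% of control, with a log2 fold change of 1.92 ± 0.09 (SE) and an adjusted p of 3.13e-13. ZNF114 has a KRAB match and 3 fingers, fewer than the median of 12 among the members, and lies outside the 9 position groups.

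Most of the called members changed by less than 2-fold. ZNF331, an imprinted KRAB gene, had 456, 416 and 420 reads in control and 231, 193 and 228 in the other group. It fell by 0.82 ± 0.08 on the log2 scale, to 56.6% of control (edgeR adjusted p = 3.45e-08). ZNF792 had 270, 260 and 298 reads against 151, 143 and 147, a change of −0.74 ± 0.10 (adjusted p = 3.95e-06). For both genes, every library labelled PELP1-KD was below every control library. ZNF443 had 256, 252 and 212 reads against 176, 128 and 148, a smaller change of −0.51 ± 0.11 (adjusted p = 0.000687), and part of its reads were fractional. In all, 27 members fell by less than 2-fold, with log2 fold changes between −0.82 and −0.18. They stood at 56.6% to 88.6% of control, with a median of 77.6%. The 45 members that rose stood at 111% to 378% of control, with a median of 127%, and 14 of them lie in the cluster from 52.1 to 54.1 Mb.

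ZNF91 and ZNF93, known as repressors of retrotransposons, were slightly higher. ZNF91, which represses SVA elements, had 1304, 1191 and 1108 reads in control libraries against 1410, 1098 and 1258 in those labelled PELP1-KD. Scaled by depth, this was a log2 fold change of 0.23 ± 0.06 (adjusted p = 0.00314). ZNF93, which represses LINE-1 elements, had 931, 779 and 790 reads against 1031, 837 and 958, a change of 0.34 ± 0.06 (adjusted p = 0.000118). The scaled groups did not overlap for either gene, and both have fractional reads. ZNF274, known to recruit SETDB1 to the 3′ ends of zinc finger genes and named here outside the rule, had a change of 0.20 ± 0.05 (adjusted p = 0.00181).

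Other members with a described role moved little. ZNF224, a repressor of the aldolase A gene, had 266, 227 and 253 reads in control and 284, 265 and 322 in the labelled group, a log2 fold change of 0.39 ± 0.09 (adjusted p = 0.000828). ZNF350, known as ZBRK1 and a partner of BRCA1, had 166, 135 and 157 reads against 177, 162 and 186, a change of 0.36 ± 0.11 (adjusted p = 0.00747). Both rose, and their scaled groups did not overlap. ZNF675, an inhibitor of TRAF6 signaling, changed by −0.12 ± 0.09 (adjusted p = 0.238), ZNF45 by −0.01 ± 0.06 (adjusted p = 0.882) and ZNF264 by 0.08 ± 0.10 (adjusted p = 0.507), and none of them passed. ZNF43 changed by −0.21 ± 0.09 with an adjusted p of 0.0597, which became 0.0253 with the replicate block. ZNF146, a protein made almost only of fingers, changed by 0.08 ± 0.05 with an adjusted p of 0.165, which became 0.0225 with the block.

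The members with the highest levels for their length were ZNF787, ZNF444 and ZNF428, none of which has a KRAB match. Their control levels were 2658, 2350 and 1094 normalized reads per kilobase of exon, beside a median of 69.0 among tested members. ZNF444, a regulator of a scavenger receptor gene, had 5230, 4936 and 5116 reads in control libraries against 4999, 4761 and 6033 in those labelled PELP1-KD, a log2 fold change of 0.21 ± 0.05 (adjusted p = 0.000777). ZNF428 changed by 0.15 ± 0.05 (adjusted p = 0.0169), a call that was lost without control replicate 2 or without replicate 2 or 3 of the labelled group, with adjusted p values from 0.0525 to 0.0574. ZNF787, the highest of all, changed by 0.06 ± 0.05 and did not pass (adjusted p = 0.296). In the libraries labelled PELP1-KD, ZNF787 and ZNF444 had levels of 2774 and 2725 normalized reads per kilobase, closer to each other than in control.

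The calls were also counted by level. Levels here are means over all 6 libraries, so they fall with the change itself. Of the 57 tested members under 99.0 normalized reads, 25 (43.9%) were lower and 2 (3.51%) higher. These 57 hold all 19 members called at least 2-fold lower (33.3% of the 57). Among all genes below that level, 23.7% were lower, 17.1% higher and 16.4% at least 2-fold lower. As given above, 13 of the 19 passed the filter only through control by group means, so the members' shares cannot be read as an excess. Of the 112 members between 99.0 and 403.6 normalized reads, 16 (14.3%) were lower and 25 (22.3%) higher, where 22.9% and 27.7% of all genes at these levels were. None of them changed 2-fold, where 5.46% of all genes at these levels were 2-fold lower and 4.55% 2-fold higher. Of the 57 members above this range, 5 (8.77%) were lower and 18 (31.6%) higher, beside 28.7% and 29.5% of all genes at such levels, so the share of higher members was near that of all genes. Across the 226 members, the control level per kilobase and the log2 fold change had a Spearman rho of 0.27. This describes genes that share the same 6 libraries. The 226 include the 13 members that passed the filter only through control by group means, all of them lower. No member passed only through the other group, so the rho cannot be read as a dependence on level.

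**Figure D3:**
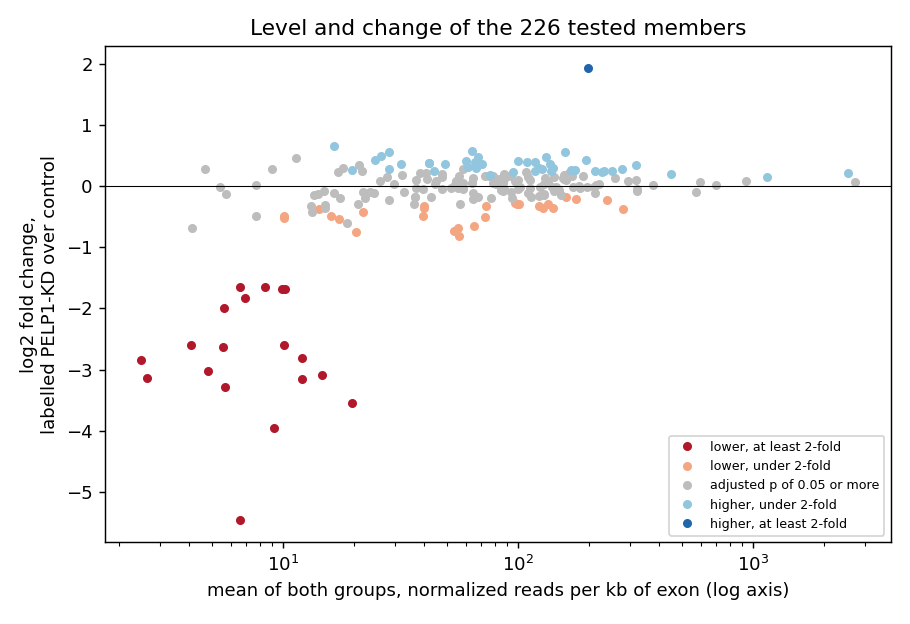
Log2 fold change (libraries labelled PELP1-KD over control) against the level of each of the 226 tested members, as the mean of both groups in normalized reads per kilobase of exon on a log axis, colored by call. All 19 members called at least 2-fold lower are at the left, among the members with little RNA, and the members with the highest levels are near 0.

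The members were split along the chromosome wherever 2 neighboring starts were more than 1 Mb apart, which gave 9 position groups of 5 to 59 members and 11 scattered members. The calls of each group were read against the 26.8% of all tested genes lower and 26.8% higher. In the group from 2.8 to 2.9 Mb, 3 of 5 tested members (60%) were lower and 0 higher, with a median log2 fold change of −0.33, and the summed normalized reads of its members were 80.2% of control. From 7.1 to 9.9 Mb, 6 of 15 (40%) were lower and 1 (6.67%) higher, with a median of −0.17, which was −0.29 without replicate 1 and −0.11 without replicate 2 of the labelled group, and a sum of 90.4% of control. From 11.6 to 12.7 Mb, 4 of 20 (20%) were lower and 2 (10%) higher, both shares below those of all genes, with a median of −0.12, which was −0.20 without replicate 3 of the labelled group and −0.073 without control replicate 2. In each of these 3 groups the summed reads of every labelled library were below those of every control library. No member of the group from 11.6 to 12.7 Mb changed 2-fold.

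On the 2 sides of the centromere the medians ran from −0.14 to −0.03. From 19.8 to 24.3 Mb, 6 of 28 tested members (21.4%) were lower and 6 higher, with a median of −0.03. From 35.2 to 35.5 Mb, 2 of 5 were lower, ZNF792 among them, and 0 higher, with a median of −0.14, which was −0.25 without replicate 1 of the labelled group. From 36.7 to 38.3 Mb, 6 of 26 (23.1%) were lower and 2 (7.69%) higher, with a median of −0.07, which was −0.13 without replicate 3 and −0.022 without replicate 2 of the labelled group. The sums of these groups stood at 107%, 86.2% and 102% of control, and only from 35.2 to 35.5 Mb did the sums of the libraries not overlap. Within each replicate number, the labelled sum was above the control sum from 19.8 to 24.3 Mb and from 36.7 to 38.3 Mb, opposite in sign to the medians, and below it from 35.2 to 35.5 Mb. The sign of the median turned from 19.8 to 24.3 Mb without control replicate 2 (0.049), and from 36.7 to 38.3 Mb with at least 10 reads in every library (0.018).

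Farther along the long arm, the share of higher members exceeded that of all genes in 1 group. From 44 to 45.6 Mb, 2 of 23 tested members (8.70%) were lower and 6 (26.1%) higher, the latter near the background, with a median of 0.11. From 52.1 to 54.1 Mb, 7 of 38 (18.4%) were lower and 14 (36.8%) higher, with a median of 0.14 (0.029 over its members with whole values only) and a sum of 112% of control. In this group the 3 control sums lay between 10535 and 10908 normalized reads and the 3 labelled sums between 11758 and 12327. The last and largest group, from 56.0 to 59.0 Mb, had 10 of 57 lower (17.5%) and 11 higher (19.3%), both under the background. Its median was 0.05 (0.010 without replicate 3 of the labelled group), and it holds 6 of the 19 members called at least 2-fold lower. Its summed reads were 106% of control, as were those from 44 to 45.6 Mb. In these 2 groups, too, every labelled sum was above every control sum. The scattered members had 0 of 9 lower and 3 higher. These shares depended on the gap of 1 Mb. With a gap of 0.5 Mb the last group was split. Its part from 56.0 to 57.2 Mb had 5 of 17 lower (29.4%) and 2 higher (11.8%). The part from 57.7 to 59.0 Mb had 5 of 40 lower (12.5%) and 9 higher (22.5%). With a gap of 2 Mb, members from 48.0 to 59.0 Mb formed 1 group, with 17 of 97 lower (17.5%) and 26 higher (26.8%).

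**Figure D4:**
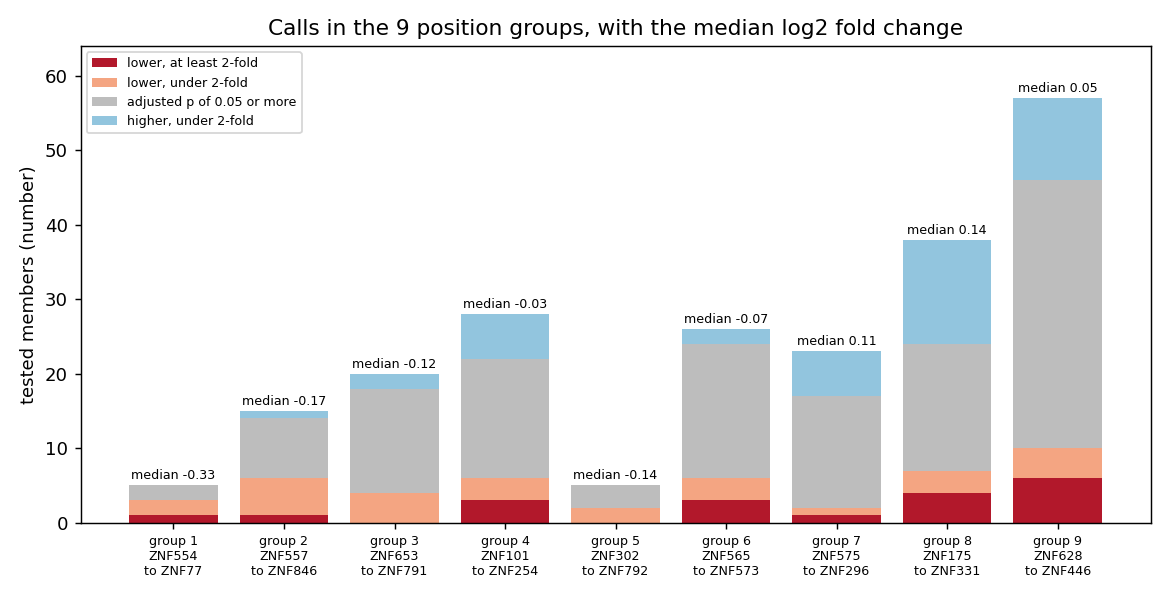
Number of tested members in each of the 9 position groups by call, from the short arm at the left to the end of the long arm at the right, with the median log2 fold change (libraries labelled PELP1-KD over control) above each bar. The median runs from −0.33 in group 1 to 0.14 in group 8, and members called at least 2-fold lower are in all groups but groups 3 and 5.

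The neighbors of the 19 members were examined next. Of the 19, 6 had another of the 19 as the next tested member, in the pairs ZNF676 and ZNF492, ZNF701 and ZNF137P, and ZNF667 and ZNF471, the last pair with LOC100128252 between them. Among tested genes of any name, 7 of the 19 lay next to a gene that fell at least 2-fold, since ZNF835 lies beside ZIM2. The other 12 did not. In all, 8.41% of tested members and 10.1% of the other tested genes inside the position groups fell at least 2-fold. How often other tested genes lay next to such a gene was not counted, so the 6 and the 7 are not read as a result of position. ZNF549 lies beside ZNF550, which had 177, 142 and 143 reads in control libraries against 170, 136 and 201 in those labelled PELP1-KD, a log2 fold change of 0.30 ± 0.12 (edgeR adjusted p = 0.0408) with overlapping groups. ZNF808, with a change of 0.35, lies between ZNF578 and ZNF701. Among members, ZNF793 lies between ZNF570 and ZNF540, with changes of −0.03 and 0.28, neither of which passed.

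ZNF585A and ZNF585B, neighbors with 21 fingers each, had changes of opposite sign and were picked after their values were seen. ZNF585A had 104, 73 and 111 reads in control libraries against 131, 119 and 110 in those labelled PELP1-KD, a log2 fold change of 0.49 ± 0.16 (adjusted p = 0.0120). ZNF585B had 84, 66 and 84 reads against 50, 49 and 49, a change of −0.49 ± 0.17 (adjusted p = 0.0233). The reads of both were whole, but reads of such near copies are hard to place. ZNF160, a long gene with 20 fingers in the group from 52.1 to 54.1 Mb, was also picked for its value and rose by 0.55 ± 0.06 (adjusted p = 1.48e-07), with fractional reads.

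Promoter CpG content was set beside the change. A RefSeq promoter window was found for 210 members and for 15 of the 19. The ratio of observed to expected CpG had a median of 0.76 in these 15 and 0.78 in the other 183 tested members with a window. A ratio of at least 0.6 was found in 13 of the 15 (86.7%) and in 146 of the 183 (79.8%), beside 48.9% of the 35116 RefSeq promoters of this length and 58.5% of those on chromosome 19. Of the windows printed above, those of ZNF549 (1.06), ZNF135 (1.04) and ZNF667 (1.03) had ratios above 1, while ZNF550 (0.83), which did not fall, had a higher ratio than ZNF793 (0.76), which did. ZNF556 (0.31) and ZNF90 (0.40) fell with few CpG in the window. Across 198 members, the ratio and the log2 fold change had a Spearman rho of 0.03. No DNA methylation was measured in these libraries.

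**Figure D5:**
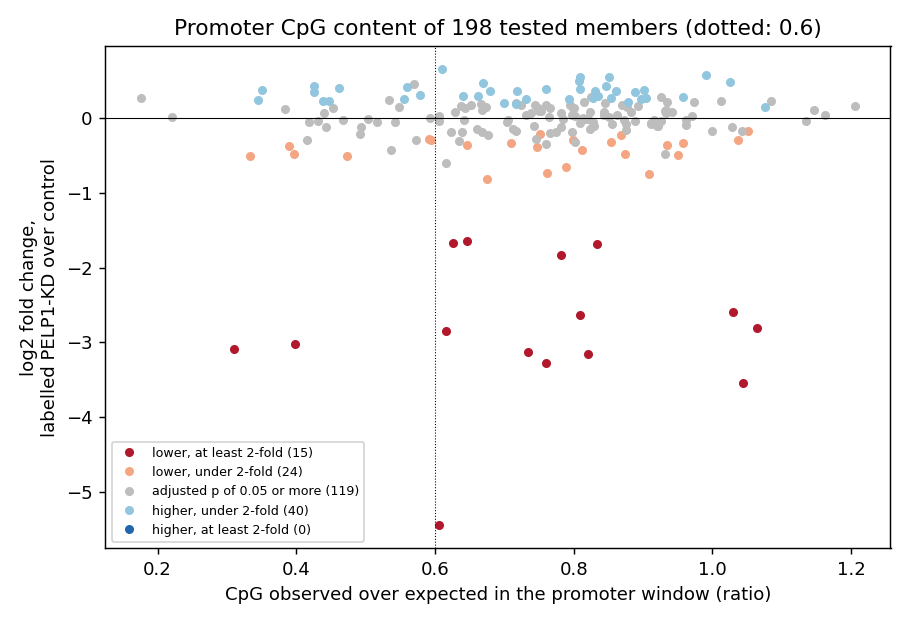
Log2 fold change (libraries labelled PELP1-KD over control) against the ratio of observed to expected CpG in the 300-base promoter window of 198 tested members, colored by call, with a dotted line at a ratio of 0.6. The 15 members called at least 2-fold lower that have a window lie between 0.31 and 1.06, over most of the range of the other members.

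Protein features were counted in the same way. A coding sequence was found for 236 members, and 199 of them had a match to the start of a KRAB domain. Among the members called at least 2-fold lower, 15 of 17 (88.2%) had a match, as did 171 of the 203 other tested members (84.2%). Of the 186 tested members with a KRAB match, 35 (18.8%) were lower and 41 (22.0%) higher, and of the 34 without one, 9 (26.5%) were lower and 3 (8.82%) higher, where 26.8% of all tested genes were lower and 26.8% higher. The median number of fingers was 13 in the 17 and 12 in the 203.

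Partners of KRAB zinc finger proteins had small changes. Of 21 corepressors and heterochromatin factors listed, 20 were in the tables, 19 were tested, 5 (26.3%) were lower and 3 (15.8%) higher, where 26.8% of all tested genes were lower and 26.8% higher, and none changed 2-fold. With the replicate block, 10 were lower and 3 higher. The share of all tested genes called with the block is not given here, so this rise is not read as a result about the list. TRIM28, the KRAB corepressor, had 27684, 26293 and 27792 reads in control libraries against 22830, 20609 and 26399 in those labelled PELP1-KD, a log2 fold change of −0.06 ± 0.04 that did not pass (adjusted p = 0.177) but did with the block (adjusted p = 0.00659). SETDB1 had 1386, 1319 and 1323 reads against 1059, 827 and 1037, a change of −0.30 ± 0.05 (adjusted p = 8.28e-05). A further 3 factors are named here because of their values, outside the rule for named genes. The maintenance DNA methyltransferase DNMT1 was at −0.41 ± 0.04 and its partner UHRF1 at −0.35 ± 0.04. The chromatin remodeler ATRX was at 0.37 ± 0.05. All 3 passed the test. The remaining factors that passed changed less, with CBX3 at −0.20, CHD4 at −0.12, MORC2 at 0.19 and ZNF445 at 0.15.

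Zinc finger genes in or beside the same clusters that carry other names included 3 large reductions. The list also holds TRIM28, which lies beyond the last position group and is counted among the corepressors too. Of 20 listed, 19 were in the tables and 15 were tested. Of the 15, 6 (40%) were lower and 1 (6.67%) higher, where 26.8% of all tested genes were lower and 26.8% higher. At least 2-fold lower were 3 (20%), where 4.79% of all tested genes were. This share cannot be read as an excess either, since ZIM2, 1 of the 3, reached the filter's cutoff only in control and shares exons with PEG3. PEG3, an imprinted zinc finger gene, had 532, 441 and 427 reads in control libraries against 30, 14 and 34 in those labelled PELP1-KD, a log2 fold change of −3.99 ± 0.15 (adjusted p = 2.97e-14). ZIM2, whose first exons overlap PEG3, had 58, 60 and 56 reads against 6, 1 and 4, a change of −3.78 ± 0.35, and reads from the shared exons cannot be assigned to either gene. ZIK1 had 151, 123 and 170 reads against 42, 44 and 50, a change of −1.54 ± 0.16. All 3 lie in the group from 56.0 to 59.0 Mb, as do ZNF667, ZNF471, ZNF835, ZNF549, ZNF418 and ZNF135. Of the 99 tested genes inside the 9 groups that are not members, 10 (10.1%) were at least 2-fold lower and 0 higher. These 10 include PEG3, ZIM2 and ZIK1 again. ZIM2 and LOC284408 among them reached the filter's cutoff only in control, so this share is not read as an excess. Of the 724 tested genes elsewhere on chromosome 19, 34 (4.70%) were at least 2-fold lower and 22 (3.04%) higher. Among all tested genes, 4.79% were at least 2-fold lower and 2.85% higher.

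The 20 members that were not tested had between 0 and 16 reads in a library. ZNF826P, ZNF729, ZNF536, ZNF154 and ZNF132 had 0 reads in all 6 libraries. A further 7 of the 20 lie in the group from 11.6 to 12.7 Mb. ZNF677, a KRAB gene known to be methylated in lung tumors, had 9, 8 and 7 reads in control libraries against 0, 0 and 4 in those labelled PELP1-KD, too few for the main test.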

How the data were processed

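RNA-seq libraries of Hep3B cells were analysed, 3 labelled control and 3 labelled PELP1-KD. By the study's methods reads were mapped with TopHat2 and counted with HTSeq, while the submitters' processing notes name HISAT2, SAMtools and featureCounts on hg19. The file headers give featureCounts v1.5.0-p1, counting by strand over exons with a minimum mapping quality of 2 and giving reads with several matches fractional weights. What the authors deposited are therefore estimated counts, without normalization, of which 10.6% to 13.3% per library were not whole. Labels and methods conflict on the RNA kit, on mRNA selection or ribosomal RNA removal, and on paired or single reads.

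Estimated counts were rounded and fitted over all genes with edgeR 4.0.16 (TMM, filterByExpr, robust glmQLFit, glmQLFTest, R 4.3.3), tested on simulated data first, with Benjamini-Hochberg adjustment over 14537 genes. The threshold was an adjusted p under 0.05, with a log2 fold change of at least 1 for 2-fold calls. Reads were normalized by the TMM-scaled depth, divided by the geometric mean depth of the 6 libraries. The median SE of a log2 fold change was 0.06 over all genes and 0.10 over the members, whose low counts limit the precision. The ratio interval for ZNF560 covers counting error only. Same-numbered libraries deviated together (correlations 0.336, 0.247 and 0.666 over 6370 genes), although replicates 1 and 2 did so across numbers too (0.418 and 0.244), so the replicate number was also used as a block. Alternatives covered normalization, filters, DESeq2 1.42.0, the block, whole values only and leaving out each library. CpG was counted in RefSeq promoter windows matched to GRCh37. The RefSeq proteins planned for were not used here, and fingers and KRAB matches were counted in coding sequences of GENCODE v44lift37 of at least 100 residues.

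Members and lists were chosen with earlier results of these data known. Named members were the 10 lowest and 10 highest called at least 2-fold, without overlap and with 50 or more normalized reads on average in whichever group was higher. They were joined by the smallest p per position group, members with at most 3 reads in one group and at least 30 in the other, 13 with a known role or named in the paper, the 3 highest per kilobase, and PELP1, TRIM28, SETDB1, PEG3 and other listed genes past both thresholds. No columns of other samples were present.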

Additional observations from a re-analysis of the deposited data

How the results depend on the processing

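The filter on low counts bore most on the members. The number called at least 2-fold lower was 3 if each library had to hold 10 reads, 1 if either group had to average 1 RPKM, and 12 with a mean of at least 20 reads over the 6 libraries, a filter chosen after seeing the data. Members lost to the RPKM filter were below that level in both groups. The number was 20 without a filter, which added ZNF677, and 19 to 20 with 1 library left out, where ZNF665 was added without replicate 2 of the labelled group, and the same 19 members were called under every other normalization, DESeq2 and the replicate block. At an adjusted p under 0.05, 21 members were lower with the RPKM filter, and 27 were higher among members with whole values. With the replicate block, 50 were lower and 57 higher, with 17 calls gained and 1 lost (ZNF610), and the share of all genes called with the block is not given here. Among genes named in the report, the block brought PELP1 (−0.083, adjusted p = 0.0106), ZNF146, ZNF43 and TRIM28 past the threshold and changed no other call, and among the listed corepressors it also did so for CBX1, CBX5, HDAC1 and HDAC2. With 1 library left out, 39 to 47 members were lower and 38 to 50 higher, and the change of PELP1 lay between −0.105 and −0.040, past the threshold only without replicate 3 of the labelled group. ZNF43 also passed without a filter and without replicate 1 or 2 of the labelled group. The members' median became 0.033 with 10 reads, 0.074 with the RPKM filter and −0.022 with whole values, and −0.0041 to 0.029 with 1 library left out. Medians of position groups moved as follows. With the RPKM filter, they were −0.061 from 11.6 to 12.7 Mb, 0.052 from 19.8 to 24.3 Mb, 0.11 from 36.7 to 38.3 Mb, 0.20 from 52.1 to 54.1 Mb and 0.14 for scattered members. With 10 reads, the median from 36.7 to 38.3 Mb was 0.018. Without a filter, it was −0.28 from 11.6 to 12.7 Mb and 0.080 for scattered members. From 35.2 to 35.5 Mb, it was −0.23 with the RPKM filter and −0.25 to −0.13 with 1 library left out. With whole values, it was −0.49 from 2.8 to 2.9 Mb and 0.029 from 52.1 to 54.1 Mb. With 1 library left out, it ranged from −0.29 to −0.11 from 7.1 to 9.9 Mb, from −0.20 to −0.073 from 11.6 to 12.7 Mb, from −0.044 to 0.049 from 19.8 to 24.3 Mb, from −0.13 to −0.022 from 36.7 to 38.3 Mb, from 0.098 to 0.19 from 52.1 to 54.1 Mb and from 0.010 to 0.068 from 56.0 to 59.0 Mb. The sign turned in the groups from 19.8 to 24.3 Mb and from 36.7 to 38.3 Mb, and the cause was not tested. No other normalization moved the median of all genes by more than 0.02.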

Other observations

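ZNF-named genes on other chromosomes were read in the same fit. Of 282 such genes, 243 were tested, 60 (24.7%) were lower and 47 (19.3%) higher, and 14 (5.76%) fell and 3 (1.23%) rose at least 2-fold, where 4.79% and 2.85% of all tested genes did. The genes named here were picked after their values were seen. ZNF512B, with the most reads of the 17, had normalized reads of 895 in control and 340 in the libraries labelled PELP1-KD, a log2 fold change of −1.40 (edgeR adjusted p = 8.23e-12). ZNF711, an X-linked gene of intellectual disability, stood at 85.7 and 17.0 normalized reads (adjusted p = 1.31e-07). ZNF860, ZNF423 and ZNF488 were the 3 that rose. ZNF860 went from 58.7 normalized reads in control to 166 in the labelled group, and ZNF423, a DNA-binding partner in BMP signaling, from 22.9 to 62.2, a log2 fold change of 1.43.

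A1BG, a plasma glycoprotein gene inside the last position group on chromosome 19, was at 356, 367 and 349 reads in control and at 5, 11 and 12 in the libraries labelled PELP1-KD, or 2.96% of control (adjusted p = 7.13e-15).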
